A study of Homo sapiens with 6 samples.

Results

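The transcripts described here are those of CTTN, which encodes cortactin, and of 9 genes whose products are its relatives or partners in invadopodia: HCLS1, WASL, WIPF1, WIPF2, SH3PXD2A, SH3PXD2B, DNM2, SRC and ABL2. They were found by gene symbol, and all 10 were present among the 54644 gene rows of the deposited tables. Of the 10, 8 were among the 14409 genes with enough fragments for testing, while HCLS1 and WIPF1 were not. RNA-seq was performed on SKBR3, an established HER2-positive breast adenocarcinoma cell line of epithelial origin. SKBR3 cells had been stably infected with lentivirus made from the pLVX vector alone (control, n = 3) or from pLVX carrying human CTTN cDNA (CTTN, n = 3). Both groups carry the vector and its puromycin selection and differ by the CTTN insert. Whether each stable line was a pool or grew from 1 cell, whether the replicates came from separate cultures and which promoter drives the insert were not given in the sources used here, so the p-values measure the spread between these libraries only.

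Cortactin binds filamentous actin through a row of tandem repeats and the Arp2/3 complex through its acidic amino terminus, and it stabilizes branched actin networks. Its carboxy-terminal SH3 domain binds N-WASP, WIP proteins and dynamin. In invadopodia, the actin-rich protrusions with which invasive cells degrade matrix, cortactin assembles with these partners and with the TKS scaffolds, and tyrosine kinases such as SRC and ARG phosphorylate it. In breast cancer CTTN is known as a gene of the 11q13 amplicon.

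The transcripts of CTTN are shown first, since the insert is a CTTN cDNA. Which isoform that cDNA holds, and whether it reaches beyond the coding sequence, was not given in the sources used here. The gene lies on the plus strand at chr11:70398529-70436575 (GRCh38, RefSeq). The files list 18 isoforms of it, of which CTTN-201 (ENST00000301843), CTTN-202 (ENST00000346329) and CTTN-203 (ENST00000376561) carry the results. In GENCODE (release lifted to GRCh37, used here only for transcript structure) CTTN-201 has 18 exons and 1650 coding bases, CTTN-202 has 17 exons and 1539 coding bases, and CTTN-203 has 19 exons and 1902 coding bases. CTTN-202 and CTTN-203 lack exon 11 of CTTN-201, a coding exon of 111 bases, or 37 codons, that holds an actin-binding repeat. In the first of these sequences the exon is in capitals between 15 bases of each neighbour, and the second is the junction that replaces it, in which the capitals mark the start of the next exon.
CTTN-201 exon 11: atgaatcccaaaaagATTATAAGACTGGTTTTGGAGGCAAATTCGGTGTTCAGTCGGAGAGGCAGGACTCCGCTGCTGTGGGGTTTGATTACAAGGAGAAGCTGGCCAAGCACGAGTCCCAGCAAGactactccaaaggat
CTTN-202 and CTTN-203 junction: atgaatcccaaaaagACTACTCCAAAGGAT

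Exons 8, 9 and 10 of CTTN-201 are also 111 bases long and share 64.0%, 62.2% and 65.8% of their bases with exon 11 when laid side by side without gaps. Exon 6 has the same length and shares 21.6%. CTTN-203 also differs at its end: where CTTN-201 has a last exon of 1550 bases, CTTN-203 leaves that exon after 94 bases and continues with exons of 279 and 298 bases. At the first of these junctions the end of exon 17 is in capitals and the start of exon 18 in lower case. Fragments across these junctions, and across exon 11, are among the fragments that tell the 3 isoforms apart.
CTTN-203 exon 17 to 18: GGTGTGCAAGGGCCGcttcagggagctcgc

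The libraries held 34887069 to 41279816 fragments in genes. The cells expressed the SKBR3 markers in every library, with ERBB2 at 1644 to 1790 FPKM (fragments scaled to transcript length and library size) and KRT8 at 1454 to 2509 FPKM. PTPRC, the pan-leukocyte marker, was at most 0.199 FPKM, and CDH1, which is lost in this line, at most 0.244 FPKM. The CTTN libraries varied among themselves more than the controls did, with a biological coefficient of variation over genes of 0.199 against 0.0426. Libraries CTTN 1 and CTTN 3 held less from long transcripts: over the 3990 tested genes with a mean isoform length above 4000 bases, the median log2 ratio to the control mean was -0.27 in CTTN 1, -0.01 in CTTN 2 and -0.52 in CTTN 3, and it ran from -0.04 to 0.02 in the controls. Over all genes, 643 of 14409 passed an adjusted p under 0.05 (edgeR's quasi-likelihood test with Benjamini-Hochberg adjustment), which is 4.46%, and 350 of them, or 2.43% of all genes tested, were higher in CTTN cells.

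CTTN itself was the most abundant of the 10 transcripts in every library. Its level was 104, 108 and 108 FPKM in the controls and 263, 329 and 180 FPKM in CTTN libraries 1, 2 and 3. All 3 CTTN libraries lay above all 3 controls, as for 19.4% of all genes tested. The lowest CTTN library still held 17144 fragments of CTTN against 10576 to 12864 in the controls. The mean was 257 ± 74.7 FPKM (SD, n = 3) in CTTN cells and 107 ± 2.31 FPKM (SD, n = 3) in control cells. In the fit across all genes CTTN rose 2.55-fold (log2 fold change 1.35 ± 0.22 SE, 95% interval 0.83 to 1.87, adjusted p = 0.0248, edgeR's quasi-likelihood test). Among the 300 called genes with a mean of at least 5 FPKM it ranked 10 by log2 fold change. At the top of that order stood LINC01405 at 1.84, LINC02303 at 1.56 and SMIM1 at 1.56, and at its bottom HSD17B1 at -1.70, TMPRSS4 at -1.54 and ADGRF1 at -1.43. The control cells were not low in CTTN to begin with: their 107 FPKM was above the mean of each partner in either group. The CTTN call was lost without CTTN library 1 (adjusted p = 0.122) and without any 1 of the controls (adjusted p = 0.136 to 0.154). It was also lost with the replicate number as a block (adjusted p = 0.0588) and in 3 limma fits on FPKM (adjusted p = 0.0607 to 0.135). The log2 fold change stayed between 1.10 and 1.57 when any 1 library was left out and was above 0 in all of these fits. Fragments of the insert and of the endogenous gene were not told apart in the gene table, and in bulk RNA more cells with the insert and more CTTN RNA per cell cannot be told apart.

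**Figure D1:**
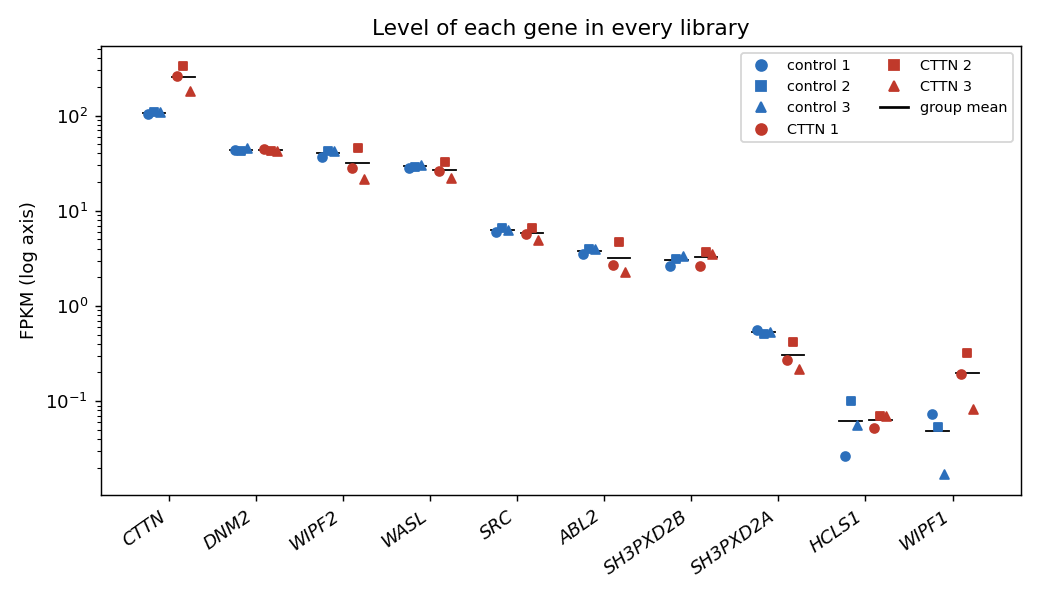
FPKM on a log axis for the 10 genes, ordered by control mean, with control libraries in blue, CTTN libraries in red and a black line at each group mean (n = 3). CTTN stands above all partners in both groups, and its CTTN libraries (180 to 329 FPKM) sit above its controls (104 to 108 FPKM), whereas for DNM2, WASL and SRC the groups overlap.

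The rise of CTTN was carried by CTTN-201. This isoform was estimated at 62.5, 65.6 and 63.3 FPKM in the controls and at 234, 281 and 150 FPKM in CTTN libraries 1, 2 and 3. Every CTTN library was higher than every control. CTTN-202, without exon 11, was estimated lower in CTTN cells, with 20.8, 20.1 and 20.6 FPKM in the controls and 1.03, 0.433 and 8.36 FPKM in CTTN libraries 1, 2 and 3. The groups did not overlap here either, and CTTN 3, the library with the least CTTN-201 of its group, had the most CTTN-202. How many of all isoforms show such a split between the groups was not counted. CTTN-203, also without exon 11, was listed at 0 in all 3 controls and at 12.3, 17.8 and 2.43 FPKM in CTTN libraries 1, 2 and 3, so no fold is given. A short isoform, ENST00000529736, was listed at 7.11 FPKM in CTTN 3 and at 0 in the other libraries.

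As a share of all CTTN, CTTN-201 made up 59.9% of the FPKM in control cells and 86.0% in CTTN cells (group means, n = 3). The start site from which CTTN-201 and CTTN-203 are transcribed held 63.5% in control and 91.2% in CTTN cells, and the coding sequence of CTTN-201 held 75.6% and 92.5% of the coding-sequence FPKM. Each of these 3 shares was higher in 3 of 3 CTTN libraries than in any control, with an exact two-sided permutation p = 0.1, the smallest that 3 against 3 libraries allow. The fragments behind the start sites showed the same order: the site of CTTN-201 had 7191, 8960 and 8012 fragments in the controls and 27232, 36574 and 15696 in CTTN libraries 1, 2 and 3, and the site of CTTN-202 had 2871, 3242 and 3080 against 419, 585 and 1065. The log2 fold changes of these 2 sites were 1.83 (adjusted p = 0.328) and -1.99 (adjusted p = 0.361) by edgeR's quasi-likelihood test over 35799 start sites, so neither passed. That test called 0 of the 35799 start sites (0%), 0 of 29413 coding sequences (0%) and 0 of 58051 isoforms (0%), with 3732, 2616 and 3629 at an unadjusted p under 0.05. edgeR's exact test on the same tables, added after seeing the data, called 190, 178 and 414. Of CTTN's own features, the start sites of CTTN-201 and CTTN-202 passed there (adjusted p = 5.8e-06 and 0.00185). The coding sequences of CTTN-201 (1.2e-05) and CTTN-203 (3.8e-10) and CTTN-201 itself (0.000153) passed too. CTTN-202 and its coding sequence did not pass there (adjusted p = 0.797 and 0.640), nor did the start site of ENST00000525852 (0.763). With voom and library weights, also added, the start sites of CTTN-201 and CTTN-202 passed (adjusted p = 0.00836 and 0.00611). That of ENST00000525852 passed as well (0.0309), beside 25.9% of all start sites. The coding sequences of CTTN-201 and CTTN-202 passed too (adjusted p = 0.0166 and 0.0169), beside 17.4% of all, while that of CTTN-203 did not (0.0963). CTTN-201 as an isoform did not pass (0.0725), where 4 of all isoforms were called. In the gene table the weights were 9.38 for CTTN 1, 0.196 for CTTN 2 and 0.170 for CTTN 3. The CTTN side of the weighted gene fit thus rested mostly on CTTN 1. Isoform levels are estimates by the authors' software from overlapping transcripts, and which part of the change came from fragments of the insert was not tested.

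**Figure D2:**
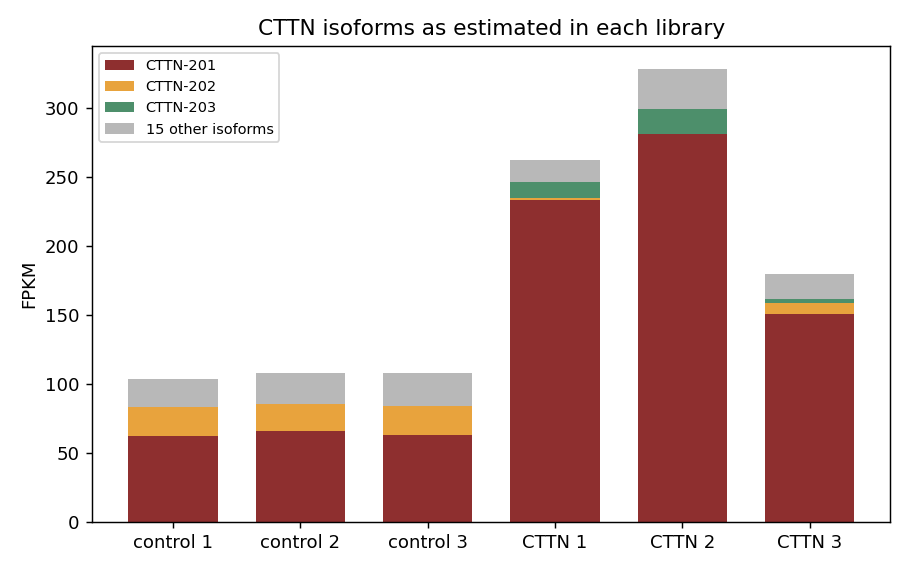
Stacked bars of estimated FPKM for the CTTN isoforms in each library, with CTTN-201, CTTN-202, CTTN-203 and the sum of the remaining isoforms in different colours. CTTN-201 fills most of the bars of CTTN cells, CTTN-202 is a clear band in the controls (20.1 to 20.8 FPKM) and a thinner one in CTTN 3 (8.36 FPKM), and CTTN-203 appears in CTTN cells only.

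HCLS1 (chr3:121631399-121660903) encodes the cortactin relative of blood cells. It was near absent from these epithelial cells, with 2, 6 and 5 fragments in the controls and 5, 6 and 5 in CTTN libraries 1, 2 and 3. These few fragments, at most 0.101 FPKM, did not separate the groups and were under the filter for testing.

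The N-WASP branch showed no call by edgeR's quasi-likelihood test over all libraries. WASL (chr7:123681943-123749003) encodes N-WASP, the activator of the Arp2/3 complex that the cortactin SH3 domain can bind. It was at 28.4, 28.9 and 30.6 FPKM in the controls and at 26.2, 32.6 and 22.1 FPKM in CTTN libraries 1, 2 and 3. The groups overlapped, with CTTN 2 above and the other two CTTN libraries below every control (log2 fold change -0.06, 95% interval -0.28 to 0.16, adjusted p = 0.656). WIPF2 (chr17:40219304-40284136) and WIPF1 (chr2:174559574-174682913) encode WIP family proteins, which bind and stabilize N-WASP. WIPF2 was by far the more abundant, with 36.4, 42.9 and 42.3 FPKM in the controls and 28.4, 45.4 and 21.8 FPKM in CTTN libraries 1, 2 and 3. The values of CTTN cells again lay on both sides of the controls (log2 fold change -0.34, 95% interval -0.83 to 0.15, adjusted p = 0.274). WIPF2 passed as lower without CTTN library 2 (-0.62, adjusted p = 0.00394, 47.1% of all genes called). It also did so with voom and library weights (-0.43, adjusted p = 8.5e-05, 65.9% called). WIPF1 was barely detected, with 5, 5 and 2 fragments in the controls and 14, 17 and 5 in CTTN libraries 1, 2 and 3. Libraries CTTN 1 and CTTN 2 were above every control and CTTN 3 equalled the highest of them in fragments, and the gene was under the filter for testing. Without CTTN library 3 it was tested and called higher, where 8.55% of all genes were called. The same held with the numbers of the labels as a block, where 11.2% were called.

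The TKS scaffolds are the adaptors that gather cortactin and its partners at invadopodia. SH3PXD2A (chr10:103594027-103855576), which encodes TKS5, was low in these cells. It had 235, 262 and 247 fragments in the controls and 115, 197 and 89 in CTTN libraries 1, 2 and 3, or 0.560, 0.509 and 0.534 FPKM against 0.268, 0.419 and 0.218 FPKM. All CTTN libraries lay below all controls, as for 19.4% of all genes tested, and as many genes (19.4%) had all CTTN libraries above. The log2 fold change was -0.78 ± 0.23 (SE), with a 95% interval of -1.33 to -0.23, and it did not pass (adjusted p = 0.0962, edgeR's quasi-likelihood test). With DESeq2, which called 13.2% of all genes, it was -0.80 and passed (adjusted p = 0.0249). Without CTTN library 2 it was -1.12 and passed (adjusted p = 0.00139), in a fit that called 47.1% of all genes. SH3PXD2A has a mean isoform length of 11299 bases, and the median over the 601 genes of at least 8000 bases was -0.51 in CTTN 1, -0.01 in CTTN 2 and -0.85 in CTTN 3, beside -0.89, -0.27 and -1.12 for SH3PXD2A itself (log2 ratio to the control mean in CPM, the fragment count scaled to library size). The gene thus lay below the median of similarly long genes in each CTTN library. With offsets that remove the length trend, an alternative added after seeing the data, its log2 fold change was -0.32 (adjusted p = 0.0719).

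SH3PXD2B (chr5:172325181-172454525) encodes TKS4. It was at 2.64, 3.12 and 3.34 FPKM in the controls and at 2.65, 3.68 and 3.49 FPKM in CTTN libraries 1, 2 and 3, while its fragments numbered 787, 994 and 1031 against 670, 1072 and 374. The scales disagreed in CTTN 3, which was the lowest library by fragments and the second highest by FPKM. On counts the log2 fold change was -0.31 (95% interval -1.001 to 0.388, adjusted p = 0.474), and on log2(FPKM + 1) with limma it was 0.08, so no direction is given for TKS4.

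DNM2 (chr19:10718079-10831903) encodes dynamin-2, the membrane-scission GTPase bound by the cortactin SH3 domain. Its row in the files also carries the name of MIR638, which lies within the gene. Its FPKM was nearly level across the libraries, with 43.8, 42.1 and 45.6 FPKM in the controls and 44.5, 42.9 and 42.9 FPKM in CTTN libraries 1, 2 and 3. The log2 fold change was -0.09 with a 95% interval of -0.33 to 0.14 (adjusted p = 0.510).

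The tyrosine kinases that phosphorylate cortactin were of low to moderate level. SRC (chr20:37344699-37406050) was at 5.998, 6.59 and 6.22 FPKM in the controls and at 5.76, 6.65 and 4.94 FPKM in CTTN libraries 1, 2 and 3. Its groups overlapped (log2 fold change -0.06, 95% interval -0.39 to 0.28, adjusted p = 0.791). ABL2 (chr1:179099330-179229677), which encodes ARG, was at 3.49, 3.96 and 3.9997 FPKM in the controls and at 2.70, 4.67 and 2.26 FPKM in CTTN libraries 1, 2 and 3. CTTN 2 was above and the other two below every control (log2 fold change -0.21, 95% interval -0.72 to 0.31, adjusted p = 0.515). With the length offsets, which called 19.1% of all genes, ABL2 turned to 0.29 and passed (adjusted p = 0.0206). It passed as lower without CTTN library 2 (-0.52, adjusted p = 0.00475, 47.1% of all genes called). With library weights, which rested mostly on CTTN library 1, it also passed as lower (-0.42, adjusted p = 0.000345, 65.9% called). No direction is given for ABL2.

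**Figure D3:**
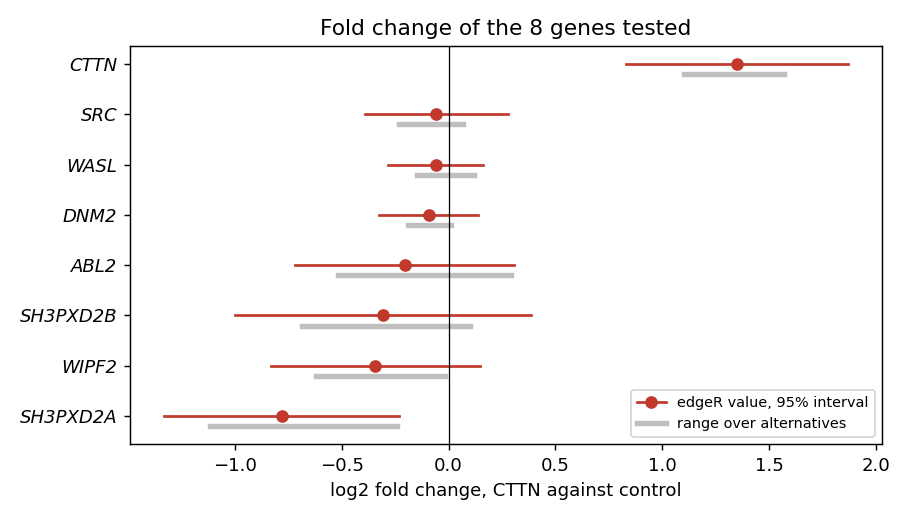
Log2 fold change of CTTN against control cells for the 8 genes tested, with the edgeR value and its 95% interval in red and, in grey, the range over all alternative settings. CTTN stands at 1.35 with an interval above 0, SH3PXD2A is the lowest at -0.78, and the intervals of the remaining 6 genes span 0.

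Of the 8 genes tested, 1 was called (CTTN) beside 4.46% of all genes, and 7 had a log2 fold change below 0, of which 5 (WASL, SH3PXD2B, DNM2, SRC and ABL2) turned above 0 with the length offsets. Their median was -0.15, beside 0.01 over all genes tested. In CPM, all 8 had the order CTTN 2, CTTN 1, CTTN 3 from high to low, an order shown by 36.98% of all genes tested. The same order of libraries holds in the median of long transcripts, and the mean isoform lengths of the 8 genes run from 3206 bases for CTTN to 11994 for ABL2. In CTTN 3 the log2 CPM ratio to the control mean was -0.82 for WIPF2 and -1.06 for SH3PXD2B, where the median of the 910 genes of 6000 to 8000 bases was -0.67. In the same library ABL2 (-0.60 against a median of -0.85) and WASL (-0.20 against -0.41) lay above the median of their length. In CTTN 2, where the median of the genes of 6000 to 8000 bases was -0.01, the ratios were 0.08 for WIPF2 and 0.23 for SH3PXD2B. The ratio of CTTN was 1.38, 1.73 and 0.77 in libraries 1, 2 and 3, beside medians of -0.07, -0.01 and -0.16 for genes of 3000 to 4000 bases, so its rise was larger than the trend in each. The part of transcript length in the values of the partners was not tested beyond the offsets named above. The count of called genes changed with the libraries used. It was 0 without CTTN library 1 or without any 1 of the controls, where 0.102% to 0.218% of all genes were called. Without CTTN library 2 it was 5 of 8 (CTTN higher, and WIPF2, SH3PXD2A, SH3PXD2B and ABL2 lower), near the 47.1% called over all genes. Without CTTN library 3 it was 2 of 9 tested (CTTN and WIPF1, both higher), beside 8.55% over all genes.

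**Figure D4:**
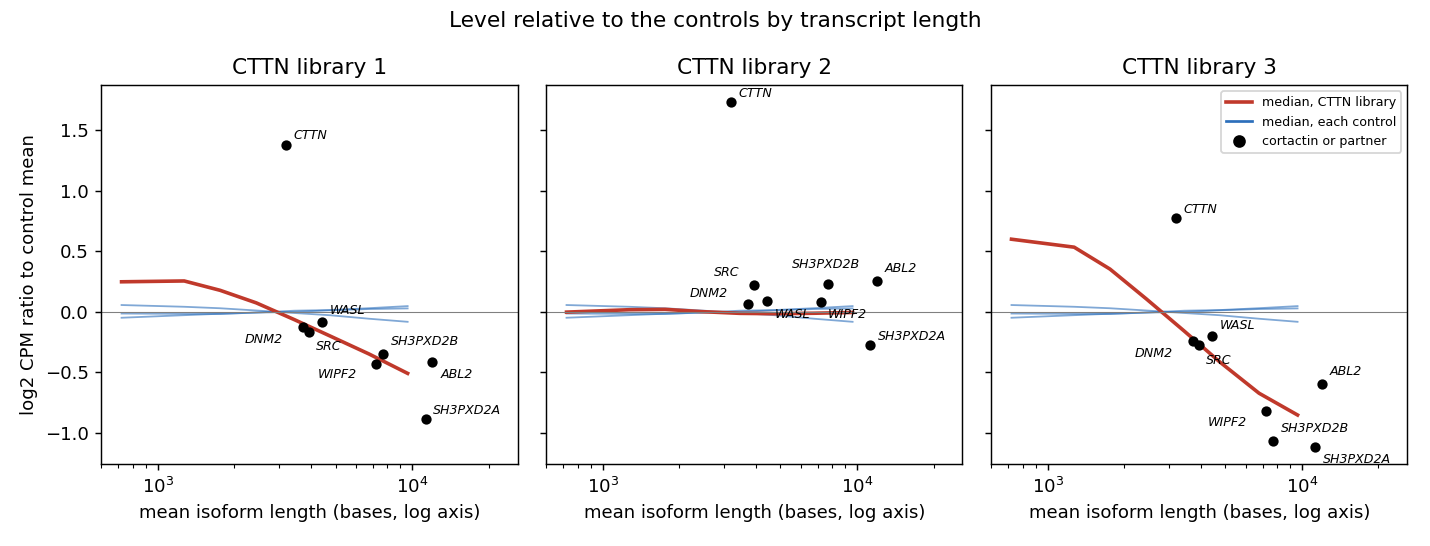
Log2 CPM ratio to the control mean against mean isoform length (log axis) in each CTTN library, with the median of all tested genes by length in red, the same for each control library in blue and the 8 tested genes as points. CTTN is far above the red line in all 3 panels, and the partners are scattered on both sides of a line that falls with length in CTTN 1 and CTTN 3 and is flat in CTTN 2.

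Further genes of the pathway were read as 3 lists. Among 21 direct partners and relatives of cortactin, 17 were tested. By edgeR's quasi-likelihood test 2 rose, none fell and 15 did not pass, with a median log2 fold change of -0.09. Over all genes tested 2.43% rose, and 1 of the 2 is the inserted gene itself. The 2 were CTTN and DNM1, the dynamin best known from neurons. DNM1 was at 2.36, 2.38 and 2.71 FPKM in the controls and at 5.15, 4.70 and 4.69 FPKM in CTTN libraries 1, 2 and 3. All CTTN libraries were above all controls, as for 19.4% of all genes tested. The log2 fold change of DNM1 was 0.74 ± 0.12 (SE, adjusted p = 0.0220, edgeR's quasi-likelihood test). It stayed far below DNM2, at 43.4 ± 0.930 FPKM (SD, n = 3) in CTTN cells. Among 17 kinases, phosphatases and acetylation enzymes that act on cortactin, all 17 were tested. By edgeR's quasi-likelihood test none rose and 1 fell, with a median of -0.13. That is close to the 4.46% called in either direction over all genes. The gene that fell was SYK, a tyrosine kinase best known from blood cells, with 185, 246 and 226 fragments in the controls and 87, 115 and 73 in CTTN libraries 1, 2 and 3. Its log2 fold change was -1.13 ± 0.15 (SE, adjusted p = 0.0142, edgeR's quasi-likelihood test). By FPKM, in contrast, SYK overlapped between the groups, with 0.969, 1.08 and 1.28 in the controls and 0.456, 1.05 and 0.404 in CTTN libraries 1, 2 and 3. Among 21 scaffold and effector genes of invadopodia, 20 were tested and 0 were called by edgeR's quasi-likelihood test with a median of -0.01 and a range of -0.78 to 0.30. At an unadjusted p under 0.05 stood 4 of the 20, beside 30.2% of all genes, and DESeq2 called 2 (SH3PXD2A and ENAH), beside 13.2% of all genes. DESeq2 also called CTTNBP2NL lower in the first list and KAT2B lower in the second. KAT2B and ENAH were called lower by edgeR without the count filter, beside 3.78% of all genes. With library weights (65.9% of all genes called) the first list had 5 higher and 8 lower, the second 4 and 10, and the third 6 and 9. Without CTTN library 2, where 47.1% of all genes were called, the first list had 2 higher and 6 lower of 17 tested, the second 1 higher and 9 lower of 17, and the third 2 higher and 7 lower of 21. The calls of DNM1 and SYK were lost without CTTN library 1 (adjusted p = 0.130 and 0.103) and without any 1 of the controls (0.102 to 0.154 for DNM1 and 0.0696 to 0.109 for SYK). They were also lost with the replicate number as a block (adjusted p = 0.0889 and 0.0557). On FPKM with limma, SYK passed in none of 3 fits (log2 fold change -0.39 to -0.81, adjusted p = 0.225 to 0.362), and DNM1 failed without the FPKM filter (adjusted p = 0.0967).

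The genes whose level followed CTTN most closely over the 6 libraries were sought among 8659 genes with a mean of at least 5 FPKM, by Pearson correlation of log2(FPKM + 1). The highest values were 0.994 for CDC42SE1, 0.992 for CNN3 and 0.992 for ELOVL4. CDC42SE1 was at 89.8, 92.7 and 94.7 FPKM in the controls and at 121, 135 and 108 FPKM in CTTN libraries 1, 2 and 3, and its 3 CTTN libraries have the order that CTTN has. The lowest were EPHX1, GLB1L2 and HSD17B1, and HSD17B1 was at 38.9, 39.2 and 34.5 FPKM in the controls and at 10.96, 7.75 and 16.7 FPKM in CTTN libraries 1, 2 and 3. These 6 points fall into the 2 groups compared and share depth and length trend, so the values describe likeness only.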

How the data were processed

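Total RNA of 3 control and 3 CTTN SKBR3 libraries was sequenced after poly(A) selection with a stranded kit. Per the labels, bcl2fastq 2.20.0, Trimmomatic, STAR and Cufflinks were used with GRCh38, on which the loci of the files lie, although the methods name hg19. The authors deposited FPKM and expected counts (fragments estimated per gene, start site, coding sequence and isoform, divided by a scale per library). The expected counts were multiplied by that scale and rounded (99.6% of gene values under 2000 were whole within 0.01). The control columns were taken from the deposited sample table, since the labels number them 1 higher.

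Genes were filtered with filterByExpr, normalized by TMM and tested with edgeR 4.0.16 (quasi-likelihood test, R 4.3.3), with Benjamini-Hochberg adjustment over all genes and a threshold of 0.05. DESeq2 1.42.0 and limma 3.58.1 were alternatives, limma on log2(FPKM + 1) or log2(FPKM + 0.1) with a mean FPKM of at least 0.5, as were other scalings, no filter, a replicate block and leaving out each library. The tests were tried on simulated data with known changes, the same spread in both groups and no length trend. That trial does not cover the unequal spread and the length trend of these libraries. Depth was 34887069 to 41279816 fragments, and the intervals cover the fit only.

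Named were the 10 genes, every called gene of the 3 lists, the 3 most and 3 least correlated with CTTN, the 3 called genes at either end of the order (mean of 5 FPKM or more) and cell markers. The genes and lists were chosen with earlier results of these data known. Transcript sequences came from GENCODE and coordinates from RefSeq (GRCh38).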

Additional observations from a re-analysis of the deposited data

How the results depend on the processing

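CTTN was higher in CTTN cells under all 17 alternatives, with log2 fold changes of 1.10 to 1.57. Its call was lost with limma on log2(FPKM + 1) (1.22, adjusted p = 0.0631), on log2(FPKM + 0.1) (1.23, 0.0607) and without a filter on FPKM (1.22, 0.135), with the replicate block (1.30, 0.0588), and when CTTN 1 or a control was left out (1.33 to 1.36, 0.122 to 0.154). The number of genes called was 976 without the count filter, 120, 144 and 13 in those 3 limma fits, 1852 with DESeq2, 105 with the replicate block, and 15 to 6925 when 1 library was left out (6925 without CTTN 2, 1252 without CTTN 3 and 15 to 32 otherwise). Of the 10 genes of interest, those called were 0 in the limma fits (7, 7 and 10 tested) and the replicate block (8 tested), 2 with DESeq2, and 0 to 5 with 1 library left out (8 or 9 tested).

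The deviations of samples with the same number in the deposited table had correlations of 0.04, 0.16 and -0.28. Those of samples with different numbers ran from -0.42 to 0.40. With so few libraries these values cannot show whether the numbers pair the samples. The block with the numbers of the labels, which keeps 4 libraries, gave 1622 genes and 3 of the 9 tested (CTTN and WIPF1 higher, and SH3PXD2A lower at -0.61, adjusted p = 0.0137), with correlations of 0.02 and 0.31 between its pairs. Among alternatives added after seeing the data, library weights gave 9495 and 7, and length offsets 2757 and 2. The weights were 9.38 for CTTN 1, 0.196 for CTTN 2 and 0.170 for CTTN 3. With the length offsets 5 genes turned to above 0 (WASL 0.12, SH3PXD2B 0.022, DNM2 0.013, SRC 0.069 and ABL2 0.29). SH3PXD2B also turned in the limma fits (0.078, 0.099 and 0.078), and SRC with the block of the labels' numbers (0.063). With 1 library left out, WASL ran from -0.15 to 0.0059 and SRC from -0.23 to 0.046. The cause was not tested.

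Library weights called 9283 start sites, 5104 coding sequences and 4 isoforms, edgeR's exact test 190, 178 and 414, and leaving out 1 library 0 to 7 coding sequences. In shares of fragments, CTTN-201 made up 91.5% of CTTN in CTTN and 67.6% in control cells, and its start site 68.6% in control cells.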

Other observations

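A pair of invadopodium genes was singled out after their values were seen. MMP14, which encodes the membrane-bound matrix protease MT1-MMP of invadopodia, was near absent, with 17, 8 and 13 fragments in the controls and 9, 10 and 6 in CTTN libraries 1, 2 and 3, and was not tested. ENAH, which encodes the actin regulator MENA, was among the more abundant effectors, with 64.5, 75.6 and 75.6 FPKM in the controls and 36.2, 61.2 and 19.7 FPKM in CTTN libraries 1, 2 and 3. All CTTN libraries of ENAH lay below all controls, as for 19.4% of all genes tested. Its log2 fold change of -0.65 ± 0.16 (SE) did not pass by edgeR's quasi-likelihood test (adjusted p = 0.0650). ENAH passed in 7 of 17 alternatives, and these called 3.78% to 65.9% of all genes. Among them were edgeR without the count filter (adjusted p = 0.0236, 3.78% of all genes called) and DESeq2 (0.00517, 13.2% called). The length offsets were another (-0.30, adjusted p = 0.0026, 19.1% called). ENAH was lower in all 17 (-1.02 to -0.30, adjusted p up to 0.336).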
